A study of Mus musculus with 703 samples.

Results

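The genes of the major histocompatibility complex (MHC) that present peptides to T cells were measured in gastrocnemius muscle, and 10 genes were chosen by symbol from the 19088 genes of the count table. For class I these were the heavy chains H2-K1 and H2-D1, the light chain B2m, the peptide transporter subunit Tap1 and the transcriptional coactivator Nlrc5. For class II they were the alpha chain H2-Aa, the beta chains H2-Ab1 and H2-Eb1, the invariant chain Cd74 and the coactivator Ciita. All 10 were in the table and all 10 passed the filter on low counts, which left 16384 genes in untreated animals, 16418 in treated animals and 17740 in all animals.

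The data were bulk RNA sequencing libraries of gastrocnemius, 1 per animal, from 352 female and 351 male mice of 20 CC-RIX strains. The strains are F1 crosses between inbred lines of the Collaborative Cross, whose genomes are mosaics of 8 founders, and 19 lines served as parents. The labels give the genotype of every animal as Outbred and give no haplotype at any locus. Animals were fed a diet of 10% or 44% fat, each with fiber, from 6 weeks of age, and a subset of those kept to 12 months drank metformin at 5 mg/mL from 7 months. Untreated animals were 236 females and 233 males, divided almost evenly between the diets, and each strain had 10 to 26 of them. With metformin there were 57 females and 59 males on 10% fat and 59 females and 59 males on 44% fat. Over both treatments 350 animals ate 10% fat and 353 ate 44% fat. Untreated animals can belong to the cohort killed at 6 months or to that killed at 12 months, and no label gives an animal's age, so an effect of metformin and an effect of age cannot be told apart here.

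Class I molecules are made by nearly every nucleated cell. A heavy chain pairs with B2m, is loaded with a peptide that the Tap1 and Tap2 transporter has carried into the endoplasmic reticulum, and shows it to CD8 T cells, and Nlrc5 drives the transcription of these genes. Class II molecules are made mainly by B cells, dendritic cells and macrophages, where an alpha and a beta chain assemble on Cd74 and show peptides to CD4 T cells, and Ciita drives the transcription of these genes. In the mouse the MHC is called H2, its chain genes are among the most variable of the genome, and closely linked H2 genes are inherited together as a haplotype. Muscle fibres themselves carry little class I and, without inflammation, hardly any class II.

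In the GENCODE M21 annotation of GRCm38, 6 of the 10 genes lay in the H2 region of chromosome 17. H2-K1 was at chr17:33996017-34000347 on the minus strand, and Tap1 at chr17:34187553-34197225 on the plus strand. H2-Ab1 was at chr17:34257689-34269419 on the plus strand, H2-Aa at chr17:34282744-34287823 on the minus strand, and H2-Eb1 at chr17:34305867-34316674 on the plus strand. H2-D1 lay at chr17:35262730-35267499 on the plus strand. The other 4 were on other chromosomes, with B2m at chr2:122147686-122153083, Nlrc5 at chr8:94434356-94527272 and Ciita at chr16:10480059-10528418, all on the plus strand like Cd74. A further gene of the region, H2-Ea-ps at chr17:34341959-34344645 on the minus strand, encodes the alpha chain that pairs with H2-Eb1. It is described with the 10 genes because it varied with strain in an on or off manner, and it was not among them.

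Class I and class II promoters share a module in which an X box, bound by RFX and CREB family proteins, is followed at a fixed distance by a Y box, an inverted CCAAT element bound by NF-Y, and Ciita and Nlrc5 act through the proteins on this module. RefSeq promoter windows of GRCm38.p6, covering 250 bases before a gene's start, were at hand for H2-K1, H2-D1, B2m, Tap1, H2-Aa and H2-Eb1 among the genes used here. A RefSeq start can differ from the GENCODE one, and for H2-D1 it lies further downstream, so that the stretch shown for it falls inside the GENCODE gene. The letters TGANG (an X box core) and ATTGG (a Y box core) were searched on both strands, alone and as a pair in that order with 10 to 30 bases between them. The pair stood in the windows of H2-K1, H2-D1, B2m, H2-Aa and H2-Eb1, and in 4.094% of 32851 promoter windows of that length. TGANG alone was in 84.807% and ATTGG alone in 33.85% of them. Tap1 held both letters but not the pair, and H2-Ab1, Nlrc5 and Ciita are named only. The sequences below are shown because chains of both classes held this module in the same order and at nearly the same spacing. They are written 5′ to 3′ on the gene's strand, with the TGANG and ATTGG matches in capitals.
H2-K1, chr17:34000348-34000413, minus strand: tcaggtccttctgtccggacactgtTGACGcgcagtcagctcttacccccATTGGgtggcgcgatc
H2-D1, chr17:35262993-35263022, plus strand: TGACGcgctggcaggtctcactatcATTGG
B2m, chr2:122147584-122147653, plus strand: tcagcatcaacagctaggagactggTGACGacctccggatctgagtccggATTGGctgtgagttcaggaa
H2-Aa, chr17:34287852-34287922, minus strand: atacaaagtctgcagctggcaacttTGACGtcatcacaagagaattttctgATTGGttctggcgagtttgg
H2-Eb1, chr17:34305759-34305827, plus strand: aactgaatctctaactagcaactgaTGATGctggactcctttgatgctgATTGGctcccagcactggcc
The spacing between the capitals was 20 bases in H2-K1, H2-D1 and B2m, 21 in H2-Aa and 19 in H2-Eb1.

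Because H2 genes are a family of similar copies, the transcripts were searched for stretches that 2 genes share, since a read from such a stretch has to be divided between them. Of the 100-base windows of H2-K1 transcripts, 0.96% were identical to a window of another gene (H2-Q10, H2-Q5 or H2-Q7). For H2-D1 the share was 3.59%, with 9 other genes, led by H2-Q1 (3.28%), Gm7030 (1.93%) and H2-T23 (1.78%). H2-Q1 and Gm7030 were not in the count table. A search with up to 3 mismatches took in only the other H2 genes and the genes with exact matches, on the same strand. In it, 9.93% of H2-K1 windows and 11.35% of H2-D1 windows were close to a window of 1 of 17 other genes, most often H2-Q4. Tap1 shared 1.93% of its windows with Psmb9 and Ciita shared 0.32% with Dexi, which are neighbouring genes. B2m, Nlrc5 and Cd74 (the last at chr18:60803848-60812652) shared 0 exact windows. H2-Aa, H2-Ab1, H2-Eb1 and H2-Ea-ps shared 0 exact windows, and 0 in the narrower search with up to 3 mismatches. These windows come from the reference genome, while the authors aligned reads to transcripts of all 8 founders, so levels of H2-K1 and H2-D1 that differ between strains carry an uncertainty from read sharing that was not tested.

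Depth and labels were checked before the comparisons. Total counts were 27.4M to 96.1M per library, with a mean of 49.4M ± 7.66M (SD over all libraries). Muscle fibre markers dominated the libraries, with means in untreated animals of 59030 counts per 1M counts (CPM) for Myh4 and 22122 CPM for Acta1. By the level of Xist, 15 libraries were like the sex that their label does not give, and 4 were closest to the profile of another strain, which makes 19 in all. A further 32 libraries, 24 untreated and 8 with metformin, had high B-cell transcripts, defined as a mean over the B cell markers more than 3 scaled median absolute deviations above the median, and 20 of the 24 untreated ones came from females. Markers of other cell types were high in the same libraries. The summed CPM of the T and NK cell markers had a median of 10.2 in the 24 (0.602 to 48.3) and of 0.247 in the other 445 untreated libraries (0 to 1.95). Adipocyte markers had medians of 338 (95.5 to 988) and 159 (56.1 to 909), and macrophage markers of 151 (91.8 to 242) and 95.5 (12.6 to 308). The part of each cell type in the results was not tested apart from the others. These libraries bear on class II above all. The summed CPM of the 5 class II genes had a median of 180 in the 24 (48.2 to 503) and of 29.1 in the other 445 untreated libraries (4.58 to 251), and that of the 5 class I genes had a median of 235 (101.6 to 464) against 114.7 (39.7 to 418). The strain, sex, diet and metformin differences were recomputed without the 32 and without the 19, and the tests in treated animals and of interactions without the 32.

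In untreated muscle the class I chains were the most abundant of the 10 genes and the 2 coactivators the least. H2-D1 averaged 45.3 ± 17.9 CPM (SD over 236 females and 233 males), B2m 44.4 ± 16.8 CPM and H2-K1 34.8 ± 18.96 CPM. Single libraries reached from 12.9 to 145 CPM for H2-D1 and from 6.45 to 160 CPM for H2-K1. Cd74 averaged 19.6 ± 23.3 CPM, H2-Aa 9.82 ± 12.1 CPM, H2-Ab1 6.54 ± 7.15 CPM and H2-Eb1 6.17 ± 7.82 CPM. For the class II genes the SD exceeded the mean, with a tail of high libraries, and the median of Cd74 was 13.3 CPM with a range of 2.46 to 213. Tap1 averaged 2.75 ± 2.23 CPM, Nlrc5 1.53 ± 1.65 CPM and Ciita 0.937 ± 1.81 CPM. Levels were also divided by the joint length of all annotated exons of a gene, which can exceed the length of a single transcript. On that scale B2m stood highest with 51.6 CPM per kb, followed by H2-D1 with 17.6, H2-K1 with 11.9 and Cd74 with 11.6. Nlrc5 had 0.180 and Ciita 0.0983. In bulk muscle, fewer cells of a type and less RNA per cell cannot be told apart.

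Strain was the main source of variation that the design names for the heavy chain H2-K1. All 10 genes differed between the 20 strains, as did 93.2% of the genes tested, so that a call for strain is not particular to them. The adjusted p-values (edgeR's quasi-likelihood F test over all genes) ran from 5.30e-73 for H2-K1 to 5.23e-10 for Tap1. What differed between the 10 genes was the share of variance of log2 CPM that strain accounted for. It was 58.7% for H2-K1, higher than in 95.1% of genes, and 33.2% for H2-D1, higher than in 83.7% of genes. It was 22.96% for H2-Eb1, 19.4% for H2-Ab1, 19.03% for Cd74, 18.7% for H2-Aa, 15.6% for B2m, 12.9% for both Tap1 and Nlrc5, and 6.42% for Ciita, against a median of 12.8% over all genes tested.

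H2-K1 was lowest in (CC043/GeniUncJ x CC011/UncJ)F1, where the 24 untreated animals had 7.39 to 40.97 CPM with a median of 11.9. It was highest in (CC051/TauUncJ x CC059/TauUncJ)F1, where 24 animals had 38.2 to 100.7 CPM with a median of 55.9. Those ranges overlapped only between 38.2 and 40.97 CPM, and the strain means, 13.6 ± 7.07 and 58.6 ± 16.03 CPM (SD, n = 24 each), differed 4.3-fold. Between them the other strain means formed a gradual series. The lower end held (CC011/UncJ x CC005/TauUncJ)F1 with 14.7 CPM, (CC002/UncJ x CC043/GeniUncJ)F1 with 21.4, (CC009/UncJ x CC013/GeniUncJ)F1 at 21.6 and (CC030/GeniUncJ x CC002/UncJ)F1 with 23.4. The upper end held (CC002/UncJ x CC075/UncJ)F1 with 45.3 CPM, (CC075/UncJ x CC042/GeniUncJ)F1 with 47.7, (CC051/TauUncJ x CC019/TauUncJ)F1 with 49.2 and (CC001/UncJ x CC042/GeniUncJ)F1 with 51.4. Strains next to each other in the order of their levels were compared for all 10 genes by a two-sided permutation test, with p-values adjusted over the 190 pairs. The neighbours were picked by the order of the same values, so these p-values describe gaps only. A step that did not pass does not show that levels are equal. Animals were permuted between the 2 strains with no term for sex, diet or identifier range. Of the 190 pairs, 2 differed beyond their spread. For H2-K1 it was the step between (CC043/GeniUncJ x CC011/UncJ)F1 and (CC002/UncJ x CC043/GeniUncJ)F1, of 0.73 on the log2 scale, with an adjusted p = 0.00095, the smallest the permutations can give. The order in that test is that of the means of log2 CPM, by which (CC011/UncJ x CC005/TauUncJ)F1 was lowest. The other 18 steps in H2-K1 did not pass the test.

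H2-D1 kept another order of strains. It was lowest in (CC004/TauUncJ x CC019/TauUncJ)F1 with 28.1 ± 5.78 CPM (n = 26) and highest in (CC001/UncJ x CC042/GeniUncJ)F1 with 61.8 ± 22.4 CPM (n = 24), a 2.2-fold range. (CC043/GeniUncJ x CC011/UncJ)F1, lowest for H2-K1, had 44.9 CPM of H2-D1 and stood in the middle. B2m, which pairs with both heavy chains, varied least of the 10 genes between strains. It ranged from 34.1 CPM in (CC002/UncJ x CC043/GeniUncJ)F1 to 58.6 CPM in (CC009/UncJ x CC013/GeniUncJ)F1, or 1.72-fold. The latter strain lay in the upper range of sequencing identifiers alone, and the range serves as a batch here. Untreated B2m averaged 54.7 CPM in that range and 42.6 CPM in the lower. The strain means were not adjusted for range, so strain and range cannot be told apart for that strain. Tap1 ranged from 1.70 to 4.55 CPM (2.68-fold) and Nlrc5 from 0.832 to 2.73 CPM (3.28-fold), both lowest in (CC002/UncJ x CC043/GeniUncJ)F1 and highest in (CC051/TauUncJ x CC019/TauUncJ)F1. Those high means rested on some animals, since the medians there were 2.61 CPM for Tap1 and 1.46 CPM for Nlrc5, below the 4.27 and 1.97 CPM of (CC051/TauUncJ x CC059/TauUncJ)F1, which was highest for both by the mean of log2 CPM.

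**Figure D1:**
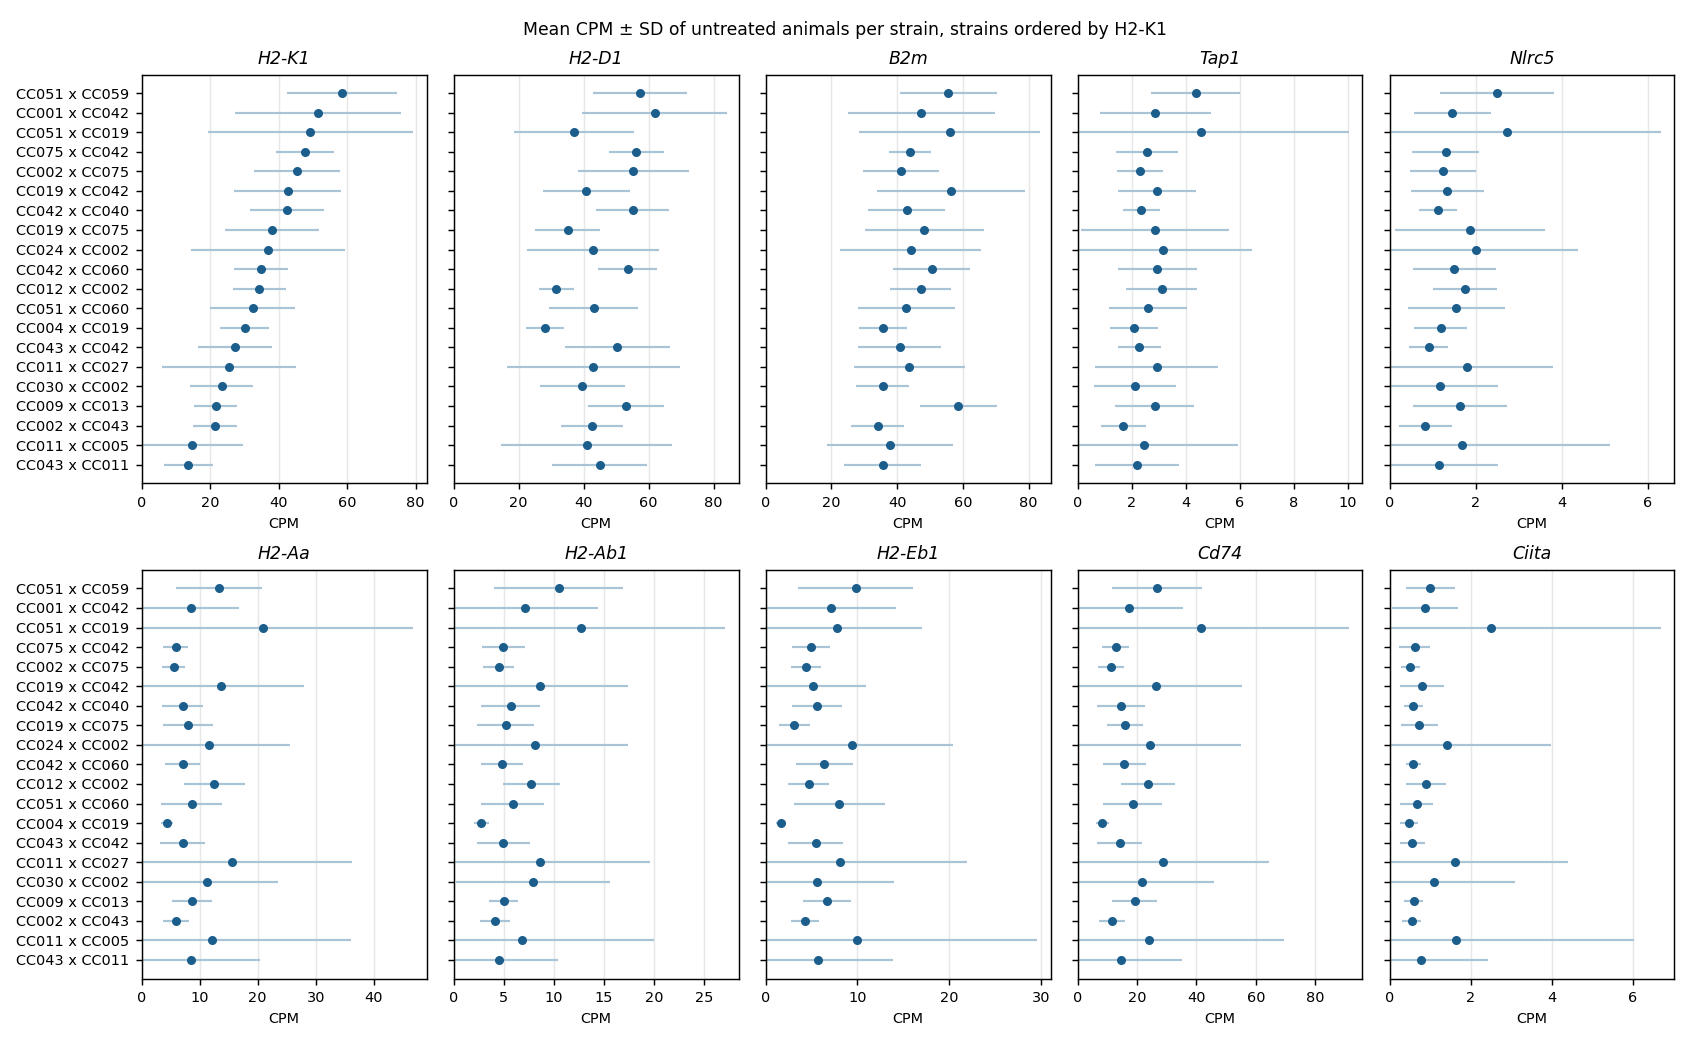
Mean counts per 1M counts (CPM) of each of the 10 genes in untreated animals of each of the 20 CC-RIX strains, 1 panel per gene, with bars of 1 SD over animals, cut off at 0 where the SD exceeds the mean, and strains in the order of H2-K1 in every panel (line names are shortened by dropping the suffix after the stroke). H2-K1 climbs from 13.6 to 58.6 CPM, H2-D1 does not follow that order, and the class II genes have wide bars in the strains with high-level animals.

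The class II genes shared most of their extremes with each other, and some class I genes stood at the same extremes. H2-Aa, H2-Ab1, Cd74 and Ciita were all lowest in (CC004/TauUncJ x CC019/TauUncJ)F1 and highest in (CC051/TauUncJ x CC019/TauUncJ)F1. H2-D1 was also lowest in the former strain, and Tap1 and Nlrc5 were also highest in the latter. The means went from 4.35 to 20.9 CPM for H2-Aa, from 2.76 to 12.7 for H2-Ab1, from 8.35 to 41.6 for Cd74 and from 0.479 to 2.51 for Ciita. The high means rested on some animals: in (CC051/TauUncJ x CC019/TauUncJ)F1, Cd74 had a median of 20.1 CPM and a range of 11.7 to 185, and Ciita a median of 0.568 and a range of 0.302 to 15.4. By the mean of log2 CPM that strain was again highest for H2-Aa, Cd74 and Ciita, while (CC051/TauUncJ x CC059/TauUncJ)F1 was highest for H2-Ab1 and H2-Eb1, and Ciita was lowest in (CC043/GeniUncJ x CC011/UncJ)F1. In (CC004/TauUncJ x CC019/TauUncJ)F1 the 26 animals were close together, with Cd74 at 4.79 to 15.7 CPM and a median of 8.05. H2-Eb1 was also lowest in that strain, at 1.68 ± 0.514 CPM, but its highest mean, 10.0 CPM, was in (CC011/UncJ x CC005/TauUncJ)F1, with an SD of 19.6. The step from (CC004/TauUncJ x CC019/TauUncJ)F1 to (CC019/TauUncJ x CC075/UncJ)F1, 0.80 on the log2 scale for H2-Eb1, was the other neighbouring pair that differed in the permutation test (adjusted p = 0.00095). Without the high-B-cell libraries the strain difference was again called for all 10 genes, where 92.1% of all genes were called.

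The ratio of 2 genes in the same animal removes what moves both genes together, and for several pairs it separated the strains far more sharply than either gene. H2-K1 over H2-D1 was lowest in (CC043/GeniUncJ x CC011/UncJ)F1, at 0.288, and highest, at 1.29, in (CC051/TauUncJ x CC019/TauUncJ)F1 as geometric means, a 4.47-fold range. Strain accounted for 91.3% of the variance of the log2 ratio, and the SD within a strain had a median of 0.139 on the log2 scale. Sex and diet accounted for 0.0216% and 0.0885%. The 3 crosses of CC011/UncJ had ratios of 0.288, 0.322 and 0.573, and the 3 crosses of CC043/GeniUncJ had 0.288, 0.497 and 0.530. The 4 crosses of CC019/TauUncJ had 1.03, 1.06, 1.07 and 1.29, and of the other strains only (CC012/GeniUncJ x CC002/UncJ)F1, with 1.08, lay among these. (CC051/TauUncJ x CC059/TauUncJ)F1 came next below them with 1.02. Strain accounted for 82.01% of the variance of H2-K1 over B2m and 69.6% of that of H2-D1 over B2m, where the shares for sex and diet were again under 1%. Since both heavy chains share reads with other H2 genes, a founder allele that aligned less completely would move such a ratio in the same way in every animal of a strain, and this was not tested.

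Among class II chains, strain accounted for 63% of the variance of the ratio of the 2 beta chains, H2-Eb1 over H2-Ab1, which ran from 0.579 in (CC051/TauUncJ x CC019/TauUncJ)F1 to 1.45 in (CC011/UncJ x CC005/TauUncJ)F1. The 4 crosses of CC019/TauUncJ lay at 0.579, 0.598, 0.605 and 0.614, and only (CC012/GeniUncJ x CC002/UncJ)F1 with 0.583 and (CC030/GeniUncJ x CC002/UncJ)F1 with 0.605 were as low. The next strain, (CC011/UncJ x CC027/GeniUncJ)F1, had 0.743 and the widest spread within a strain, an SD of 0.643 on the log2 scale, and it also had the widest spread for H2-K1 over H2-D1, an SD of 0.361. The ratio of alpha to beta chain, H2-Aa over H2-Ab1, varied less, from 1.18 to 1.79, with 26% of its variance between strains. Cd74 over H2-Aa varied least, from 1.72 to 2.24, with 14.8% between strains.

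The strain levels could be compared with those of the metformin-treated animals, which are other animals of the same 20 strains. As descriptions over 20 strain means, Pearson's r between untreated and treated animals was 0.937 for H2-K1 (Spearman's rho 0.935; r = 0.921 without the 2 strains farthest from the median) and 0.907 for H2-D1 (rho 0.904; 0.922). For the ratio H2-K1 over H2-D1 it was 0.994 (rho 0.980; 0.991), and for H2-Eb1 over H2-Ab1 it was 0.979 (rho 0.943; 0.974). The class II levels themselves were less alike between the sets, with r = 0.495 for H2-Aa, 0.532 for H2-Ab1, 0.769 for H2-Eb1, 0.468 for Cd74 and 0.402 for Ciita. For H2-Ab1 the value rested on 2 strains, and without them r was 0.129. The remaining class I genes lay below the heavy chains, with 0.703 for B2m, 0.722 for Tap1 and 0.752 for Nlrc5, and also below H2-Eb1. Without the 2 farthest strains r was 0.635 for B2m, 0.524 for Tap1 and 0.553 for Nlrc5. It was then 0.581 for H2-Eb1, 0.431 for H2-Aa, 0.359 for Cd74 and 0.333 for Ciita.

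Strains that have a parental line in common share a haplotype wherever that line is homozygous, and this was used in place of haplotypes, which the files used here do not give. Of the 190 pairs of strains, 44 had a line in common. For H2-K1, strain means in those pairs differed by 0.451 on the log2 scale on average, against 0.777 in the other 146 pairs (two-sided permutation of strain names, p = 0.00072, adjusted p = 0.0128 over all genes tested). H2-K1 was the only 1 of the 10 genes called, where 18.5% of all genes were called. The mean differences were 0.386 against 0.592 for H2-Eb1 (adjusted p = 0.0651), 0.284 against 0.390 for H2-D1 (adjusted p = 0.0771) and 0.221 against 0.294 for B2m (adjusted p = 0.103). For the other 6 genes the adjusted p-values ran from 0.292 to 0.626. In metformin-treated animals H2-K1 was again the only 1 called (0.414 against 0.845, adjusted p = 0.00669), where 1749 of 16384 genes were called. With the transformed values B2m and H2-Eb1 were called as well, where 3599 of 16384 genes were called. This closeness takes in the whole genome that such strains share, of which the H2 region is a small part.

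For each of the 7 lines that are a parent of at least 3 strains, the strain means with that line were compared with the rest by an exact two-sided permutation test, adjusted over all genes and lines. Of the 70 comparisons of the 10 genes, 0 were called, where 1.77% of all comparisons were, while 15 had an unadjusted p under 0.05. With 3 strains the smallest p possible is 0.000877. The crosses of CC011/UncJ had 13.6 to 25.5 CPM of H2-K1 and the other 17 strains 21.4 to 58.6, a difference of 1.21 on the log2 scale (exact permutation p = 0.00263, adjusted p = 0.0844). The crosses of CC043/GeniUncJ had 0.832 to 1.15 CPM of Nlrc5 and the others 1.12 to 2.73 (exact permutation p = 0.00175, adjusted p = 0.0698). The crosses of CC019/TauUncJ lay lower by 0.76 in H2-Eb1 (exact permutation p = 0.00516, adjusted p = 0.117) and by 0.44 in H2-D1 (exact permutation p = 0.00826, adjusted p = 0.147). None of these passes the threshold.

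H2-Ea-ps, the gene of the E alpha chain, was on in some strains and off in others. Null alleles of this gene are known in several H2 haplotypes, that of C57BL/6 among them, and its suffix in the annotation marks it as a pseudogene on the reference. In 9 strains the median count of untreated libraries was 0, and in 11 strains it lay between 49 and 165. The 4 strains with 0 counts in every untreated library were (CC043/GeniUncJ x CC042/GeniUncJ)F1, (CC043/GeniUncJ x CC011/UncJ)F1, (CC030/GeniUncJ x CC002/UncJ)F1 and (CC051/TauUncJ x CC059/TauUncJ)F1. The parents of the 9 strains were 10 of the 19 lines, and each of the 11 other strains had at least 1 parent among the other 9 lines: CC004/TauUncJ, CC005/TauUncJ, CC009/UncJ, CC012/GeniUncJ, CC013/GeniUncJ, CC019/TauUncJ, CC024/GeniUncJ, CC027/GeniUncJ and CC060/UncJ. The rule that a strain was on when at least 1 parent came from those 9 lines thus held for the medians of all 20 strains, the lines having been sorted on the same strains. Metformin-treated animals had medians of 0 in the same 9 strains and of 49 to 149.5 counts in the other 11.

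Within strains some libraries departed from this state. In (CC011/UncJ x CC027/GeniUncJ)F1, 15 of 24 untreated libraries had at least 3 counts and the other 9 had fewer, while animals of an F1 strain share their genotype apart from regions where a parental line is not fixed. In (CC024/GeniUncJ x CC002/UncJ)F1, 22 of 24 had at least 3 counts. In (CC002/UncJ x CC075/UncJ)F1, 2 of 24 libraries reached 3 counts, with a highest count of 15, and in (CC001/UncJ x CC042/GeniUncJ)F1 a single library had 4. In all, 14 untreated libraries were unlike their strain, and 4 of these were also closest to another strain by their whole profile. These 4 were both of the departing libraries of (CC024/GeniUncJ x CC002/UncJ)F1 and both of those of (CC002/UncJ x CC075/UncJ)F1. Of the 9 in (CC011/UncJ x CC027/GeniUncJ)F1, 0 were closest to another strain. The mixed state of (CC011/UncJ x CC027/GeniUncJ)F1 stands beside its wide spread in the ratios of H2-K1 over H2-D1 and of H2-Eb1 over H2-Ab1, and whether they have a common origin was not tested.

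**Figure D2:**
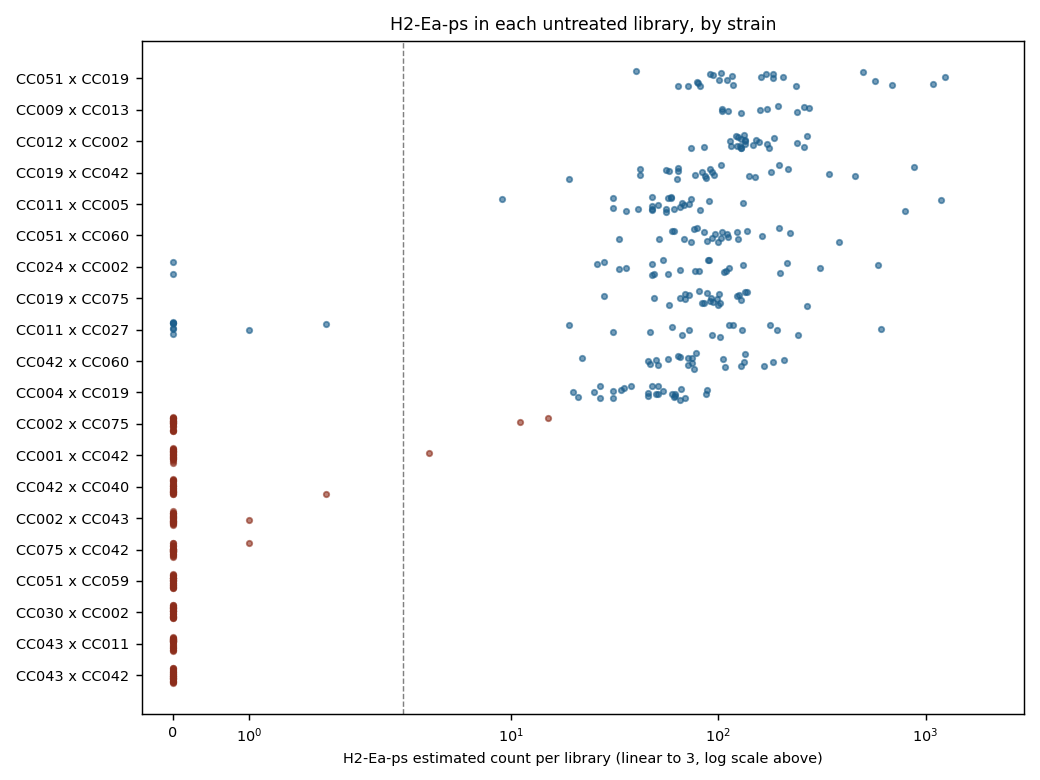
Count of H2-Ea-ps in each untreated library, by strain, on an axis that is linear up to 3 counts and logarithmic above, with a dashed line at 3 counts (line names shortened). Libraries of 9 strains sit at or near 0, those of 11 strains have medians of 49 to 165, and (CC011/UncJ x CC027/GeniUncJ)F1 holds both kinds.

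The level of H2-Eb1, the partner chain, overlapped between the strains with H2-Ea-ps on and those with it off. Strain means of H2-Eb1 were 4.31 to 9.79 CPM with a median of 5.56 in the 9 strains with a median of 0 counts of H2-Ea-ps, and 1.68 to 10.0 CPM with a median of 6.63 in the other 11, so the sets overlapped almost completely. Medians of strain means were 7.03 against 11.6 CPM for H2-Aa and 14.6 against 23.6 CPM for Cd74, also with overlapping ranges. No test was made here, since the strains were divided by a measured value.

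Females had more of all 10 genes than males in untreated muscle, and the difference was larger for class II than for class I. The median over the 5 class II genes was −0.62 on the log2 scale (males minus females) and over the 5 class I genes −0.19, beside −0.02 over all genes. All 10 were called and all were lower in males, where 65.2% of the genes tested were called, 35.7% lower and 29.5% higher in males. Cd74 had 2.46 to 185 CPM in the 236 females, with a median of 16.4, and 2.80 to 213 CPM in the 233 males, with a median of 11.4. The ranges of the sexes therefore overlapped fully, and the fold change was −0.64 (SE 0.0768, adjusted p = 7.33e-15). H2-Aa had a median of 8.03 CPM in females (0.861 to 102.3) and 5.56 in males (1.64 to 114.5). Its fold change was −0.58 (SE 0.0792, adjusted p = 4.64e-12). Values for H2-Ab1 (−0.59, SE 0.0767), H2-Eb1 (−0.64, SE 0.0835) and Ciita (−0.62, SE 0.107) were close to these. Nlrc5, although it drives class I genes, was nearer to class II in size, with −0.55 (SE 0.0887, adjusted p = 4.07e-09).

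Among class I chains, H2-K1 had a median of 35.2 CPM in females (6.45 to 160) and of 31.3 in males (7.39 to 100.7), and fell by 0.19 in males (SE 0.0438, adjusted p = 5.78e-05). H2-D1 had medians of 45.2 and 37.98 CPM and fell by 0.15 (SE 0.0349, adjusted p = 4.48e-05), B2m had medians of 43.4 and 38.5 CPM and fell by 0.12 (SE 0.0329, adjusted p = 0.000436), and Tap1 fell by 0.32 (SE 0.0684, adjusted p = 8.03e-06). Within the 20 strains taken separately, between 16 and 19 had a lower mean in males, depending on the gene. (CC051/TauUncJ x CC059/TauUncJ)F1 was higher in males for every 1 of the 10 except Nlrc5. Within the lower range of sequencing identifiers, which serve as a batch here, all 10 were called lower, where 63.9% of all genes were called. Within the upper range the 5 called were Nlrc5, H2-Aa, H2-Ab1, H2-Eb1 and Cd74, where 24.2% of all genes were called. Without the libraries that went against their labels in sex or strain the differences were larger, with −0.23 for H2-K1 and −0.70 for Cd74.

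The B-cell-high libraries, 20 of 24 of them female, move with this result. Without them all 10 genes were still called lower in males, where 62% of all genes were called in either direction. The sizes shrank by more than 1.5 times for most. The value was −0.42 for Cd74, −0.37 for H2-Aa, −0.39 for H2-Ab1, −0.40 for H2-Eb1 and −0.23 for Ciita, and −0.09 for H2-K1, −0.08 for H2-D1, −0.07 for B2m, −0.18 for Tap1 and −0.38 for Nlrc5. With all untreated libraries 0 of 11 macrophage markers were called for sex, where 65.2% of all genes were, with a median of 0.01, and without the 24 libraries 2 were called higher in males, with a median of 0.04. Of 6 dendritic cell markers tested, 4 were lower in males, among them Flt3 (−0.57), and 1 was higher, against 3 lower and 1 higher without the 24. Of the B cell markers only Igkc and Ighm passed the filter, and they went opposite ways, with Igkc at −2.002 and Ighm at +1.61 in males. Both T and NK cell markers tested, Cd3e and Cd4, were lower in males, but without the 24 libraries only 1 T and NK cell marker passed the filter and it was not called (0.13). Of 6 adipocyte markers 5 were lower in males, and 4 were without the 24. Their part in the sex difference was not tested beyond leaving out the high-B-cell libraries.

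**Figure D3:**
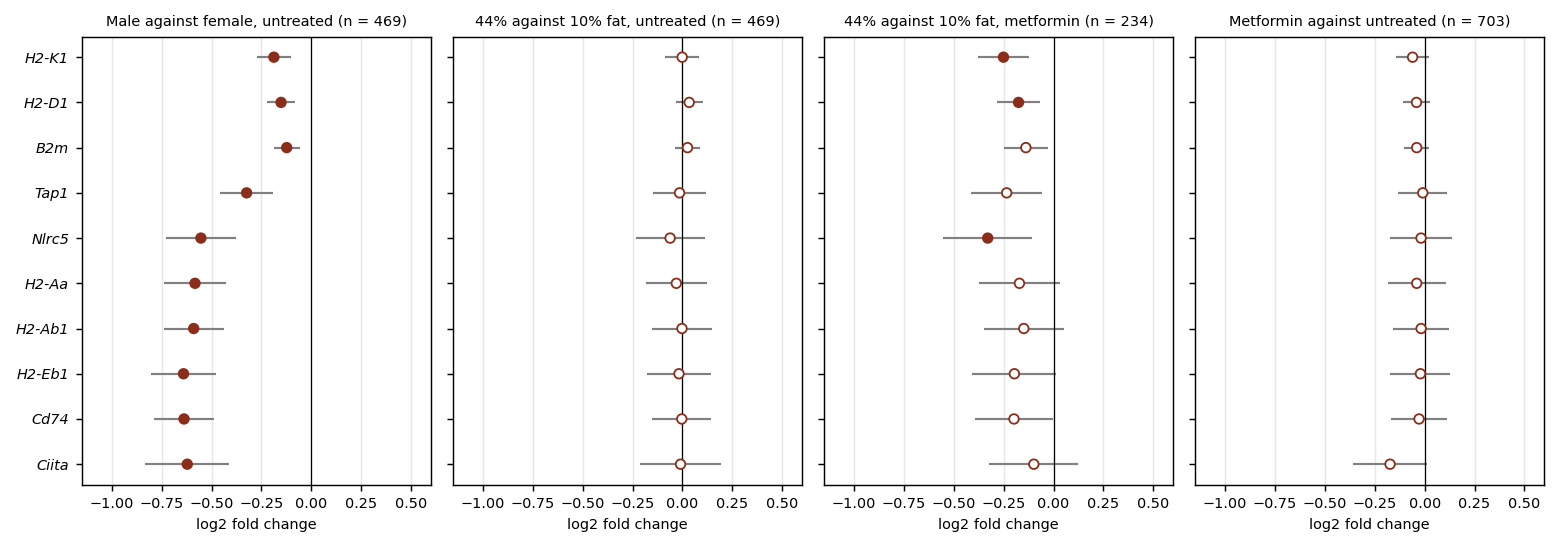
Log2 fold change of each of the 10 genes with its 95% interval in 4 comparisons: males minus females, 44% minus 10% fat in untreated animals, 44% minus 10% fat in metformin-treated animals, and metformin minus untreated. Filled points passed the test: all 10 for sex, 0 for diet in untreated animals, 3 for diet in treated animals and 0 for metformin.

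Among other genes of the pathway, the heavy chains, the other class II genes and the regulators were called for sex about as often as all genes, of which 65.2% were called and 35.7% were lower in males, so their counts are not a result about the pathway. Of the 13 other class I heavy chains in the table, 7 were lower and 2 higher in males, and the largest changes were in H2-Q7 (−0.90), H2-Q10 (−0.85) and H2-Q6 (−0.66), which are nonclassical chains that share reads with H2-K1 or H2-D1. Of 12 genes for loading of peptides on class I, 10 were lower, including the immunoproteasome subunits Psmb8 (−0.31) and Psmb9 (−0.29), and 2 were higher, including Tapbpl (+0.29), a chaperone that edits the peptides of class I. Of 9 other class II genes, 6 were lower and 0 higher, led by H2-DMb2 (−1.24) and H2-Ob (−0.96), subunits of molecules that edit or restrain class II loading, and by H2-Ea-ps (−0.51). Regulators were divided, with 5 of 15 higher, such as the kinases Jak2 (+0.31) and Jak1 (+0.19) and the NF-Y subunit Nfyb (+0.20), and 5 lower. Of 13 interferon-stimulated genes, 8 were lower, such as the chemokine Cxcl10 (−0.67) and the GTPase Gbp3 (−0.40), and 2 were higher, such as the GTPase Iigp1 (+0.56).

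The diet did not change any of the 10 genes detectably in untreated animals. H2-K1 had a median of 33.5 CPM on 10% fat (7.39 to 105.6) and of 31.96 CPM on 44% fat (6.45 to 160). The fold change (44% minus 10% fat) was 0.00 with a 95% interval of −0.09 to 0.08 and an adjusted p = 0.989. Over the 10 genes it ran from −0.06 for Nlrc5 to +0.03 for H2-D1, and the 95% intervals together reached from −0.23 to 0.19. In edgeR's test 0 of 10 were called, where 18.4% of all genes were (8.82% lower and 9.55% higher on 44% fat), and 0 of 10 had an unadjusted p under 0.05, the smallest being 0.333. DESeq2 and limma voom also called 0. Of the other class I heavy chains, H2-Q10 (−0.52) and Mr1 (−0.07) were lower and Cd1d1 (+0.33), which presents lipids, was higher on 44% fat. Of 15 regulators, 3 were lower, among them Jak2 (−0.13), and 1 was higher, Rfx5 (+0.08), a protein of the X box. Of the interferon-stimulated genes, Cxcl9 (+0.30) was higher. The effect of diet was not shown to depend on sex (0 of 10 called, 0.226% of all genes) or on strain (0 of 10 called, 3.27% of all genes). H2-Ab1 alone had an unadjusted p under 0.05 for the latter, at 0.0337.

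In the metformin-treated animals, which share no library with the untreated ones, H2-K1, H2-D1 and Nlrc5 of the 5 class I genes were lower on 44% fat. H2-K1 had a median of 32.9 CPM on 10% fat (6.40 to 160) and of 27.4 CPM on 44% fat (7.21 to 228). Its fold change was −0.25 (SE 0.0645, adjusted p = 0.00313), with a lower mean on 44% fat in 18 of 20 strains. H2-D1 had medians of 43.9 and 36.7 CPM, with a fold change of −0.18 (SE 0.0559, adjusted p = 0.0237) and a lower mean in 17 of 20 strains. Nlrc5 had medians of 1.30 and 0.982 CPM, with a fold change of −0.33 (SE 0.115, adjusted p = 0.0437) and a lower mean in 15 of 20 strains. So 3 of 10 genes were called, all lower, where 10.5% of all genes were called, 5.73% lower and 4.82% higher. The other 7 had fold changes of −0.10 for Ciita to −0.23 for Tap1 and did not pass. Among other heavy chains 5 of 13 were lower, with H2-Q10 at −0.80, H2-Q7 at −0.36 and H2-Q6 at −0.29, and among peptide-loading genes Tap2 (−0.13) and Psme1 (−0.09) were lower. Of 13 interferon-stimulated genes, 3 were lower: Iigp1 (−0.70), Irf7 (−0.33) and Gbp3 (−0.30).

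This result was less firm than the sex difference. Without the 8 treated libraries with high B-cell transcripts, H2-K1 (−0.20, adjusted p = 0.00612) and Nlrc5 (−0.32, adjusted p = 0.0354) were called and H2-D1 was not (−0.13, adjusted p = 0.0530). With limma voom H2-K1 and H2-D1 were called, Nlrc5 was not (−0.27, adjusted p = 0.0770), and Tap1 was newly called (−0.28, adjusted p = 0.0179). Within the lower range of sequencing identifiers 1 gene was called, H2-K1, where 3.27% of all genes were called. Within the upper range 0 were, where 4.15% of all genes were called. The difference between the diet effects in treated and untreated animals was itself tested as an interaction and 0 of 10 were called, where 0.00564% of all genes were. H2-K1 had −0.24 (unadjusted p = 0.00186, adjusted p = 0.384) in that test and H2-D1 −0.20 (adjusted p = 0.390), so an effect of diet in treated animals alone was not shown.

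Metformin-treated and untreated animals, over all libraries, were not told apart by any of the 10 genes. The fold changes (metformin minus untreated) ran from −0.17 for Ciita to −0.01 for Tap1, with 95% intervals reaching from −0.36 to 0.14. H2-K1 had a median of 30.6 CPM in treated animals (6.40 to 228) and of 32.8 in untreated animals (6.45 to 160), and its fold change was −0.06 (SE 0.0418, adjusted p = 0.344). In edgeR's test 0 of 10 were called, where 16.2% of all genes were (9.21% lower and 7.01% higher with metformin), and 0 had an unadjusted p under 0.05, the smallest being 0.0660 for Ciita. Of the other class II genes, H2-DMb2 (−0.79), H2-Ob (−0.63) and H2-Ea-ps (−0.34, adjusted p = 0.0278) were lower. B cell markers were lower too, with 5 of 7 called, and without the high-B-cell libraries 0 of 5 tested were lower, 2 were higher, and 0 of 9 other class II genes were called. Of 13 interferon-stimulated genes, 4 were higher, led by Cxcl10 (+0.47), Igtp (+0.34) and Iigp1 (+0.34). Of 15 regulators 1 was higher, Rfx5 (+0.21), and 2 were lower, the interferon gamma receptor chain Ifngr1 (−0.09) and the kinase Jak2 (−0.05). Of the heavy chains Cd1d1 (−0.19) and Fcgrt (−0.08) were lower.

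The effect of metformin was not shown to differ by sex (0 of 10 called, 1.87% of all genes). It differed by strain for 8 of the 10 genes, where 8.89% of all genes were called, H2-D1 and Nlrc5 being the exceptions. For Cd74, with an adjusted p = 1.04e-06, the mean of treated animals was lower than that of untreated animals by 0.81 on the log2 scale in (CC051/TauUncJ x CC019/TauUncJ)F1 and higher by 0.80 in (CC042/GeniUncJ x CC060/UncJ)F1, and it was lower in 11 of 20 strains. This call did not hold without the libraries with high B-cell transcripts, where 0 of 10 were called (5.55% of all genes). It did not hold with limma voom either, where 0 of 10 were called (2.85% of all genes).

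Across animals the genes of both classes moved together, most closely the chains within each class. This is given as a description of the untreated animals after strain, sex, diet and identifier range were removed. Pearson's r was 0.966 for H2-Aa with Cd74, 0.939 for H2-Aa with H2-Ab1 and 0.928 for H2-Aa with H2-Eb1. It was 0.938 for H2-K1 with H2-D1, 0.901 for H2-K1 with B2m, 0.762 for Tap1 with Nlrc5 and 0.730 for Cd74 with Ciita. Pairs of a class I and a class II gene ran from 0.557 for B2m with Ciita to 0.790 for H2-K1 with H2-Eb1. H2-K1 with Cd74 had 0.784, so moving together was not particular to genes of the same class. These animals share strain, library preparation and the tail of B-cell-high libraries. Across the 20 strain means the values were different for the chains with the largest strain shares. H2-K1 with H2-D1 had r = 0.309 and H2-Aa with H2-Eb1 0.426, while H2-Aa with Cd74 kept 0.977 and Tap1 with Nlrc5 had 0.909. Thus H2-K1 and H2-D1 rose and fell together among animals of a strain, while their strain means were only loosely related.

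The genes most like the class I genes over those animals, by r with the mean of H2-K1, H2-D1, B2m and Tap1, were Psmb8 (0.871), H2-Q4 (0.850), H2-T23 (0.831), Ly6e (0.809) and Tap2 (0.788). Of these, H2-Q4 was close to 6.25% of H2-K1 and 7.76% of H2-D1 windows with up to 3 mismatches. H2-T23 was identical to 1.78% of H2-D1 windows. The part of divided reads in these r values was not tested. The genes most like the class II genes, by r with the mean of H2-Aa, H2-Ab1, H2-Eb1 and Cd74, were the leukocyte genes Ptprc (0.846), Laptm5 (0.842), Mpeg1 (0.837), Coro1a (0.834) and Lcp1 (0.824). By the mean of each marker list, interferon-stimulated genes had r = 0.774 with class I and 0.642 with class II, dendritic cell markers 0.647 and 0.777, T and NK cell markers 0.635 and 0.702, macrophage markers 0.578 and 0.674, and B cell markers 0.561 and 0.622. Adipocyte markers had 0.531 and 0.437, endothelial markers 0.328 and 0.287, and muscle fibre markers 0.126 and 0.0688. Only 2 B cell markers, Igkc and Ighm, and 2 T and NK cell markers passed the filter on low counts, so these lists are not ranked against the others. Markers of several cell types thus varied with the class II genes, and which cells carried the transcripts was not tested.

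**Figure D4:**
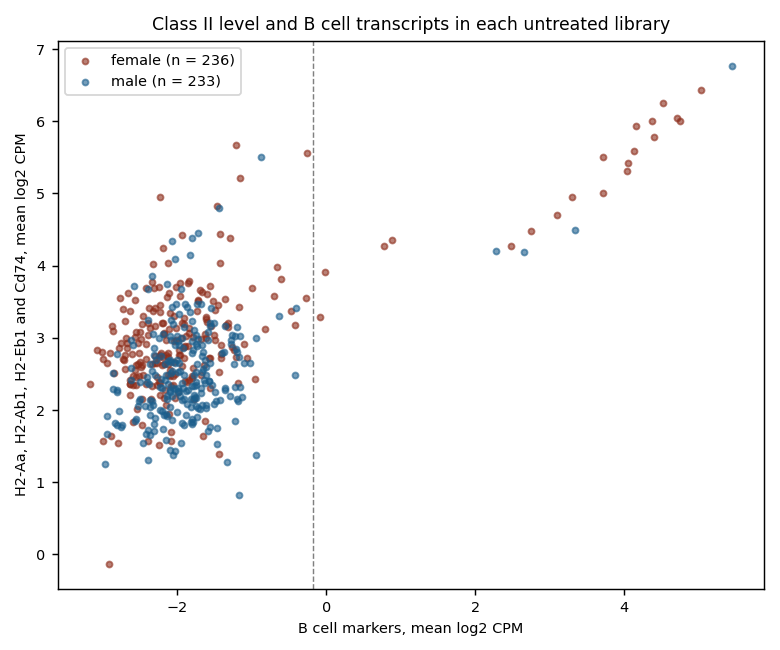
Mean log2 counts per 1M counts (CPM) of H2-Aa, H2-Ab1, H2-Eb1 and Cd74 against the mean log2 CPM of the B cell markers in each untreated animal, coloured by sex, with the dashed line at the limit for high B-cell transcripts. The 24 animals beyond the line, 20 female and 4 male, lie at the high end of class II, and the 445 animals below the line still span from 4.58 to 251 CPM in the sum of the class II genes.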

How the data were processed

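Total RNA of gastrocnemius was made into libraries of polyadenylated RNA and sequenced as 100-base read pairs. The authors aligned the reads of each pair as single-ended to a joint transcriptome of the 8 founder strains with EMASE within GBRS, which divides a read among the alleles and genes it matches, and deposited expected counts per gene as whole numbers. Genes with under 1 read in a large part of the samples had been filtered out. A second table deposited by the authors holds a variance-stabilised score per gene, made with DESeq2, and was used only as an alternative scale. The build is GRCm38 per the submitters' processing notes. Positions and lengths came from GENCODE M21, and promoters from RefSeq GRCm38.p6. A founder allele that matches its transcript less well, or a read shared by several H2 genes, would move these counts.

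Groups came from the labels as sex, diet and treatment, and strain from the strain label. Sequencing identifiers fell into a lower range (544 libraries) and an upper range (159), used as a batch term, and (CC009/UncJ x CC013/GeniUncJ)F1 was in the upper range alone. Counts were tested in edgeR 4.0.16 (TMM factors, filterByExpr, quasi-likelihood F tests) under R 4.3.3, with strain, sex, diet and identifier range as terms, and calls were made where the p adjusted by Benjamini-Hochberg over all genes tested was under 0.05. Strain, sex and diet were tested in untreated animals, diet again in treated animals, and metformin in all animals. Differences are log2 fold changes with standard errors (SE). Levels are counts per 1M counts (CPM), and variance shares and ratios used log2 CPM with a prior count of 2. Permutation tests of shared and of single parental lines used strain means with 100000 permutations, or all of them where named exact, and were adjusted over all genes. The adjustment over the 10 genes alone that had been written down first was replaced by this. Neighbouring strains were compared by 100000 permutations of their animals, adjusted over the 190 pairs. Total counts were 27.4M to 96.1M, and H2-K1 had a median of 1578 counts and Ciita of 28 counts in untreated animals. On counts simulated for the diet difference (16309 genes, 198 changed), 92.9% of changed genes were recovered and 10 unchanged genes were called.

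The 10 genes, the 14 gene lists and the tests were chosen with earlier results of these data known. Named were all 10 genes, up to 3 called genes with the largest change per pathway list and comparison, and the 5 genes most like each class. Singled out after seeing their values were H2-Ea-ps, the strains described and the libraries with high B-cell transcripts. Alternatives were RLE factors, no filter, DESeq2 1.42.0, limma 3.58.1 (voom, and a trend on the transformed values), either identifier range alone, no range term, and leaving out libraries that went against their labels or had high B-cell transcripts. Summaries used Python 3.11.15 with pandas 2.3.3 and numpy 2.4.6.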

Additional observations from a re-analysis of the deposited data

Results flagged for a closer look

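The difference between metformin-treated and untreated animals varied with strain for 8 of the 10 genes (edgeR's quasi-likelihood F test of the interaction over all genes). The adjusted p-values were 1.04e-06 for Cd74, 3.37e-06 for H2-Aa, 1.21e-05 for H2-Ab1, 1.81e-05 for H2-Eb1, 0.000219 for Ciita, 0.00975 for H2-K1, 0.0155 for Tap1 and 0.0188 for B2m. They stand here because the same contrast differed between strains by a test of the difference itself. Without the 32 libraries with high B-cell transcripts the adjusted p-values ran from 0.0696 for Tap1 to 0.862 for Ciita, so that 0 were called, and with limma voom they ran from 0.0583 for Cd74 to 0.693. In the lower range of sequencing identifiers alone all 10 genes were called, where 6% of all genes were called. For H2-K1 the difference within strains went from −0.49 on the log2 scale in (CC011/UncJ x CC027/GeniUncJ)F1 to +0.33 in (CC043/GeniUncJ x CC011/UncJ)F1. Treated animals are all of the older cohort and untreated animals of either, so a difference between strains in age effects cannot be told apart from one in the effect of the drug.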

How the results depend on the processing

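For strain, sex, diet and metformin the number of the 10 genes called kept within 1.5 times of that reported under every alternative run, except that sex called 5 genes in the upper identifier range alone. Diet in treated animals called 1 gene in the lower range alone and 0 in the upper. Metformin by strain called 0 with limma voom and 0 without the libraries with high B-cell transcripts. Nearness between strains that share a parental line was called for 3 genes with the transformed values, where 3599 of 16384 genes were called. Of 640 values of single genes under an alternative, 600 kept their side of the threshold and direction, 29 were no longer called, 5 were newly called, 6 moved by more than the spread and 0 reversed. Ciita's strain difference was lost in the upper range alone (adjusted p = 0.277). The number of all genes called changed by over 1.5 times as follows. The upper range alone called 8601 genes for strain (15263 with both), 4019 for sex (10687), 299 for diet (3009), 686 for diet in treated animals (1732) and 1 for metformin (2877). The lower range alone called 532 for diet in treated animals, 14 for diet by sex (37), 152 for metformin by sex (331) and 13 for metformin by diet (1). With limma voom, diet by strain called 0.641% of genes (3.27%), metformin by diet 0 and metformin by strain 506 (1577), and the last called 981 without the libraries with high B-cell transcripts. The causes were not tested, except that a single range holds fewer animals. No paired analysis was possible because every label carries the same replicate number. Low counts limit Ciita and Nlrc5 most.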
